A study of Homo sapiens with 24 samples.

Results

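The ABCC pumps that export glutathione conjugates were followed in colorectal cancer cells that received the thiol-reactive drug APR-246, irradiation or both. The 6 pumps are ABCC1, ABCC2, ABCC3, ABCC4, ABCC5 and ABCC10. They were chosen by name, as members of one transporter family, and each was found by matching its symbol to the Ensembl gene identifiers. They are 6 of the 60675 gene identifiers quantified, and all 6 passed the filter on low counts that left 20668 genes for testing. mRNA was sequenced from HCT116, an established human colon cancer cell line, as 3 lines that the labels call p53 mutant (Mutant), p53 null (Null) and p53 wild type (WT). Each line received the combination of 20 uM APR-246 given before 6 Gy of irradiation, 6 Gy of irradiation, 20 uM APR-246, or solvent. Cells were collected 72 h after irradiation, giving 24 libraries, 2 for each of 12 groups. Each p53 status was represented by 1 line, so the effect of p53 and other differences between lines cannot be told apart, and the labels give neither the p53 mutation nor how the null line was made. The labels do not say whether the 2 libraries of a group came from separate cultures, so the p-values measure only the spread between these libraries.

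These transporters are ATP-driven pumps of the cell membrane. After glutathione has been joined to a reactive compound, in cells often by a glutathione S-transferase, the conjugate leaves the cell through ABCC1 (MRP1) or ABCC2 (MRP2), and peptidases of the cell surface then trim it. APR-246 is converted to methylene quinuclidinone, which binds thiols, among them the cysteines of p53 and glutathione itself. Within the family, ABCC1 also exports free and oxidised glutathione. ABCC2 sits on the apical membrane of hepatocytes and enterocytes, and ABCC3 (MRP3) on the basolateral membrane, where it exports glucuronides and bile acids. ABCC4 (MRP4) and ABCC5 (MRP5) export cyclic nucleotides, ABCC4 also prostaglandins, and ABCC10 (MRP7) exports taxanes and other drugs.

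The genes lie on 6 chromosomes of GRCh38 in GENCODE 29. ABCC1 (ENSG00000103222) spans chr16:15949577-16143074 and ABCC2 (ENSG00000023839) spans chr10:99782640-99852594, both on the forward strand. ABCC3 (ENSG00000108846) spans chr17:50634777-50692252 on the forward strand, and ABCC4 (ENSG00000125257) spans chr13:95019829-95301475 on the reverse strand. ABCC5 (ENSG00000114770) spans chr3:183919934-184018015 on the reverse strand, and ABCC10 (ENSG00000124574) spans chr6:43427366-43450430 on the forward strand. The strand setting of the counting is not given in the sources used here, so reads of a gene and of an overlapping opposite gene cannot be told apart. DLK2, on the opposite strand, shares 79 exon bases with ABCC10, 0.977% of its exon length.

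Promoter sequence is shown for the member whose mRNA differed most between the lines, ABCC2, and for the only matches to an antioxidant response element among the members searched. RefSeq promoters (GRCh38.p14) were used for ABCC2, ABCC4, ABCC5 and ABCC10, the last with 2 start sites. The promoter set used here had no entry for ABCC1 or ABCC3, so these members were not searched. The 250 bases before the ABCC2 start, chr10:99782390-99782639 on the forward strand, read 5′ to 3′ in lower case because no searched motif was found in them.
ABCC2 promoter: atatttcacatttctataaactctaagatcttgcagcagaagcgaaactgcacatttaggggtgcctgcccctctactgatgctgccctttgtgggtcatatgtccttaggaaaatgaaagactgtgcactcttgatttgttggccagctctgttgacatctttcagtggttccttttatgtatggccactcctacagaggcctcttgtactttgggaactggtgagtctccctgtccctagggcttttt
The antioxidant response element core TGACNNNGC, the site of NRF2, was searched on both strands and matched once before ABCC4 and once before the earlier ABCC10 start. Capitals mark the match in each 29-base stretch below, read along the gene's own strand. The ABCC4 match is on the opposite strand, 149 bases before the start, in chr13:95301582-95301610. The ABCC10 match is on the gene's strand, 143 bases before that start, in chr6:43427388-43427416, which lies inside the gene as GENCODE 29 draws it.
ABCC4 site: gtctcctcccGCCGCGTCAcccgtcggtc
ABCC10 site: aggttataaaTGACGTTGCactaagggag
Of 35116 RefSeq promoters of the same length, 10.9% hold this core. The AP-1 site TGANTCA, held by 6.57% of them, and the C/EBP-ATF core TGATGNAA, held by 3.14%, did not occur in these windows of ABCC2, ABCC4, ABCC5 and ABCC10. A match describes letters only.

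Libraries held 53184139 to 58058729 reads assigned to genes. CDKN1A, a p53 target, reached 2253 and 2162 CPM (CPM are reads scaled to the library total) in irradiated WT cells, against 508 and 582 CPM in WT solvent cells, and stayed within 88.7 and 357 CPM in Mutant and Null. One library stood apart from its label: WT APR-246 library 1 had 133 CPM of CHAC1 and 354 CPM of DDIT4, both stress-response genes, against 10.9 and 63.7 CPM in WT APR-246 library 2, while the WT solvent libraries had 141 and 272 CPM of CHAC1 and 352 and 506 CPM of DDIT4. Of 10 markers of colorectal epithelium, 6 (EPCAM, CDH1, KRT8, KRT18, KRT19 and CDX2) had a median of at least 1 CPM. Blood cell markers summed to at most 2.90 CPM, endothelial markers to at most 3.91 CPM and fibroblast markers to between 11.8 and 69.0 CPM, most of it COL1A1. In bulk RNA, fewer cells with a transcript and less of it per cell cannot be told apart.

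Members were ordered by CPM per kb of exon, since longer transcripts collect more reads. ABCC1 had the highest level per kb, with a median of 22.2 CPM per kb and a range of 14.97 to 29.8 over the 24 libraries, and it lay above every other member in each library. Below it came ABCC10 at a median of 5.19, ABCC3 at 4.82, ABCC2 at 2.87, ABCC4 at 2.06 and ABCC5 at 1.34 CPM per kb. The order of ABCC10 and ABCC3 depended on treatment. In the 18 treated libraries ABCC10 had a median level of 5.19 CPM per kb and ABCC3 4.29, with ABCC10 above ABCC3 in 15 of 18. In the 6 solvent libraries ABCC3 had a median of 13.9 CPM per kb and ABCC10 5.24, with ABCC3 above ABCC10 in 6 of 6. ABCC2 lay above ABCC4, and ABCC4 above ABCC5, in 22 of 24 libraries each, although their ranges over libraries overlapped. In WT, ABCC2 had a median of 7.43 CPM per kb and lay above ABCC10, at 6.62, in 5 of 8 libraries. In Mutant and Null, the median of ABCC2, at 2.91 and 2.49 CPM per kb, was lower than those of ABCC1, ABCC10 and ABCC3. Single libraries could differ: ABCC3 lay above ABCC2 in 7 of 8 Mutant and 8 of 8 Null libraries. In Mutant APR-246 library 1, ABCC2 had 6.23 CPM per kb and ABCC10 5.50.

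**Figure D1:**
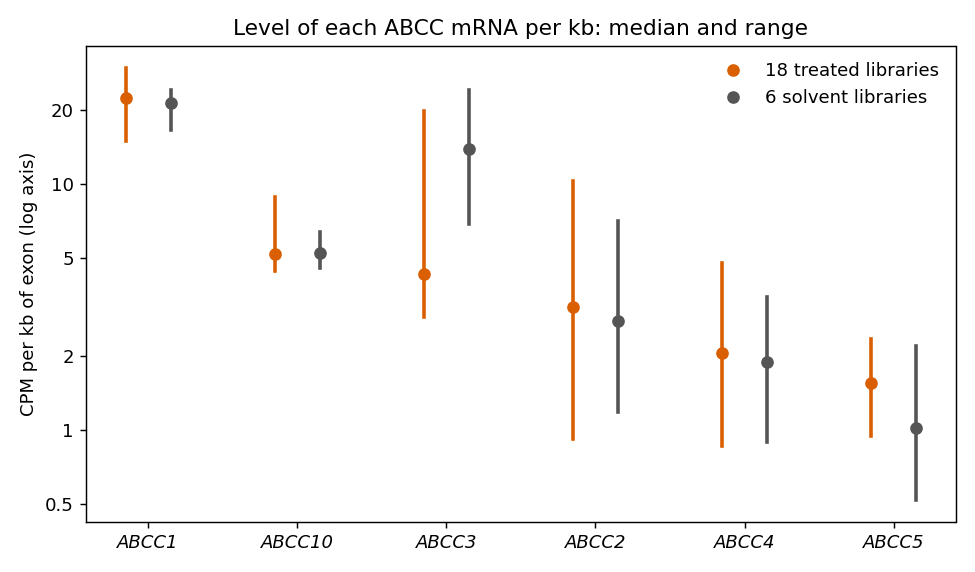
Level of each ABCC mRNA in CPM per kb of exon on a log axis; points are medians and lines run from the lowest to the highest library, for 18 treated and 6 solvent libraries. ABCC1 is highest at about 22 CPM per kb in both sets, and ABCC3 is the member whose median differs most, 4.29 in treated against 13.9 in solvent libraries.

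ABCC3, the basolateral pump, was the member whose mRNA was lower under treatment than in solvent. The series holds no library from before treatment, so a fall under treatment and a rise in solvent cannot be told apart. Here and below, rises and falls under treatment are relative to solvent. In Mutant cells it had 48.9 and 39.4 CPM under the combination, 37.4 and 38.0 CPM after irradiation and 106 and 39.7 CPM under APR-246, against 189 and 135 CPM in solvent. Null cells had 31.0 and 30.5 CPM under the combination, 37.6 and 27.6 CPM after irradiation and 43.8 and 43.3 CPM under APR-246, against 131 and 66.3 CPM in solvent. Every treated library of Mutant and of Null lay below both solvent libraries of its line. In WT cells the combination gave 84.7 and 59.7 CPM, irradiation 81.0 and 42.4 CPM and APR-246 190 and 40.0 CPM, against 232 and 132 CPM in solvent. Here too the irradiated and combination libraries lay below both solvent libraries. The exception in CPM was APR-246 library 1, which lay between the solvent libraries. On the TMM-scaled CPM used for the tests below, that library had 164, against 192 and 170 in solvent.

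**Figure D2:**
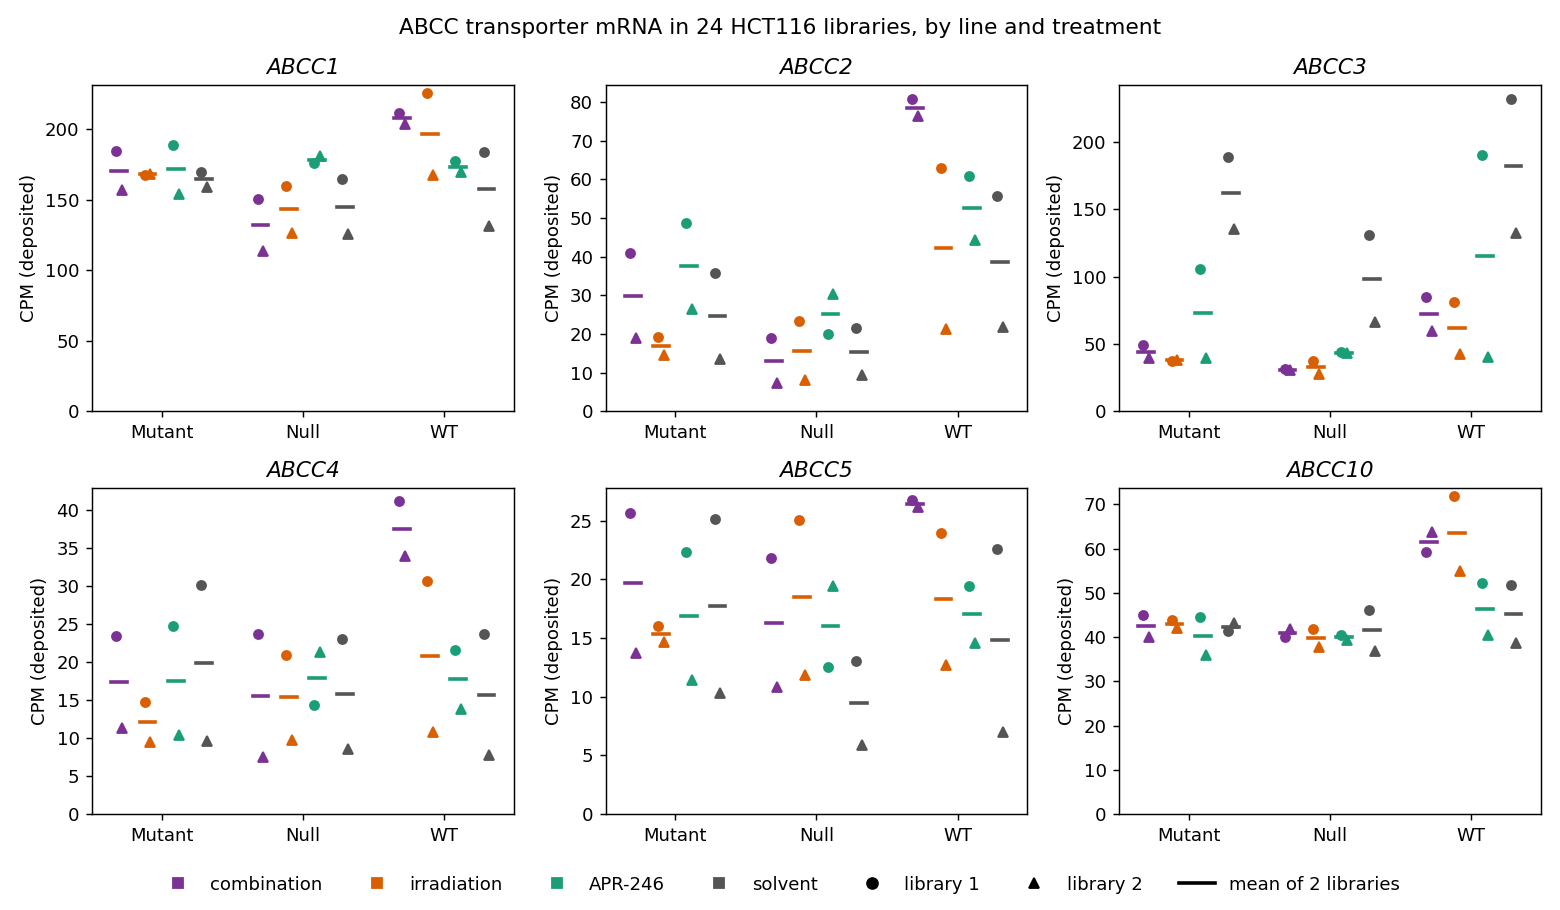
CPM of each ABCC mRNA in the 24 libraries, by line and treatment; circles and triangles are libraries 1 and 2 of a group and bars their mean. ABCC3 lies at 66.3 CPM or higher in all 6 solvent libraries, while ABCC2 and ABCC4 differ widely between the 2 libraries of most groups.

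Over the 3 lines ABCC3 averaged 49.0 ± 20.7 CPM under the combination, 44.0 ± 18.8 CPM after irradiation and 77.2 ± 61.1 CPM under APR-246, against 148 ± 56.8 CPM in solvent (SD, n = 6 libraries each). Differences were tested with limma across all 20668 genes on log2 of TMM-scaled CPM plus 0.5, averaged over the lines, with p-values adjusted by Benjamini-Hochberg over those genes and calls made under 0.05. ABCC3 fell by 1.71 ± 0.26 (SE) on this log2 scale under the combination (limma adjusted p = 0.000588). After irradiation it fell by 1.74 ± 0.26 (limma adjusted p = 0.000663), and under APR-246 by 1.20 ± 0.26 (limma adjusted p = 0.0191). It was the only 1 of the 6 members called in each of these comparisons, where 13.9% of all genes were called for the combination, 13% for irradiation and 3.14% for APR-246. The 3 comparisons share the solvent libraries. The size of the APR-246 difference moved with WT APR-246 library 1, the one standing apart, while its call held: without it the fall was 1.52 (limma adjusted p = 0.000152), and without WT APR-246 library 2 it was 0.88 (limma adjusted p = 0.0316). That call was lost, at adjusted p between 0.0526 and 0.0799, without Mutant solvent library 2, Mutant APR-246 library 2, Null solvent library 1 or Null APR-246 library 2, and without TMM scaling (log2 difference -1.13, limma adjusted p = 0.0874).

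Adding 1 treatment to the other left ABCC3 at levels not told apart by these tests. The combination differed from irradiation alone by 0.03 ± 0.26 on the log2 scale (limma adjusted p = 0.991) and from APR-246 alone by -0.50 ± 0.26 (limma adjusted p = 0.514). Measured against the sum of the single effects, the combination was higher by 1.24 ± 0.37 (limma adjusted p = 0.196). No member was called in these 3 comparisons, where 0% of all genes were called between combination and irradiation, 1.08% between combination and APR-246 and 0.00484% beyond additivity. At an unadjusted p under 0.05, ABCC3 passed in the last of them only. For combination against irradiation, limma gave 1240 genes at an unadjusted p under 0.05, edgeR called 0 genes and DESeq2 14.

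The ABCC3 difference was negative in each line for each treatment. Under the combination it was -1.92 ± 0.45 in Mutant, -1.64 ± 0.45 in Null and -1.56 ± 0.45 in WT, with limma adjusted p between 0.074 and 0.0907. After irradiation it was -1.98 ± 0.45 in Mutant, -1.67 ± 0.45 in Null and -1.57 ± 0.45 in WT, with limma adjusted p between 0.0757 and 0.0998. Under APR-246 it was -1.24 ± 0.45 in Mutant, -1.26 ± 0.45 in Null and -1.11 ± 0.45 in WT, with limma adjusted p between 0.33 and 1. The WT value under APR-246 was -2.08 without WT APR-246 library 1, the one standing apart, then called (limma adjusted p = 0.0184), and -0.14 without library 2. The Mutant value was -1.70 without Mutant APR-246 library 1 and -0.78 without library 2. Within a line, with 2 libraries against 2, limma called 0 of the 6 members in each of 9 comparisons, and ABCC3 passed an unadjusted p of 0.05 in all 9. The share of all genes called was 0.348% in Mutant, 1.95% in Null and 2.23% in WT for the combination. It was 0.0774% in Mutant, 0.677% in Null and 1.56% in WT for irradiation. For APR-246 it was 0% in Mutant, 0.131% in Null and 0% in WT; at an unadjusted p under 0.05 limma gave 1516 genes in Mutant and 557 in WT, where edgeR called 0 in both and DESeq2 101 in Mutant and 0 in WT. edgeR called no member in these 9 comparisons, and DESeq2 called ABCC3 for irradiation and the combination in each line. An F test for a response that differs between lines called no member and none passed an unadjusted p of 0.05 (ABCC3, F = 0.118, limma adjusted p = 1), where 0.0339% of all genes were called. The ABCC3 response to irradiation differed between WT and Null by 0.10 ± 0.64 and between Mutant and Null by -0.31 ± 0.64, with limma adjusted p = 1 for both.

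ABCC2, the apical pump for conjugates, was the member that differed most between the lines. Mutant cells had 40.9 and 18.8 CPM under the combination, 19.1 and 14.6 CPM after irradiation, 48.8 and 26.5 CPM under APR-246 and 35.8 and 13.6 CPM in solvent. Null cells had 18.9 and 7.22 CPM under the combination, 23.2 and 8.05 CPM after irradiation, 20.1 and 30.2 CPM under APR-246 and 21.6 and 9.30 CPM in solvent. WT cells had 80.8 and 76.5 CPM under the combination, 63.1 and 21.3 CPM after irradiation, 60.9 and 44.4 CPM under APR-246 and 55.6 and 21.8 CPM in solvent. Under the combination neither Mutant nor Null reached the WT libraries, and in each treatment the mean of the WT libraries was above those of Mutant and Null. In these CPM, Mutant libraries overlapped those of WT under APR-246 and in solvent, and Null libraries overlapped those of WT after irradiation. On the TMM-scaled CPM used for the tests, these groups did not overlap. Mutant cells then had 42.0 and 32.1 under APR-246, against 52.4 and 47.2 in WT. In solvent Mutant had 27.95 and 16.8, against 46.1 and 28.05 in WT. After irradiation Null had 19.4 and 9.59, against 54.3 and 26.5 in WT.

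Averaged over the 4 treatments, ABCC2 was lower in Mutant than in WT, with a log2 difference of -0.90 ± 0.22 (limma adjusted p = 0.0132), and lower in Null than in WT, with a difference of -1.50 ± 0.22 (limma adjusted p = 0.000185). Mutant exceeded Null by 0.60 ± 0.22, which missed the threshold (limma adjusted p = 0.0866). ABCC3 was lower in Null than in WT (log2 difference -0.89 ± 0.23, limma adjusted p = 0.0159), while Mutant minus WT, at -0.43 ± 0.23 (limma adjusted p = 0.28), and Mutant minus Null, at 0.46 ± 0.23 (limma adjusted p = 0.24), were not called. Thus 1 of 6 members was called for Mutant against WT, 2 of 6 for Null against WT and 0 of 6 for Mutant against Null, where 9.65%, 11.8% and 12% of all genes were called in that order. For Mutant against Null, ABCC2 alone passed an unadjusted p of 0.05, edgeR called no member and DESeq2 called ABCC2. The call of ABCC2 in Mutant was lost without TMM scaling (log2 difference -0.94, limma adjusted p = 0.122). The ABCC3 difference between Mutant and WT was -0.19 without WT APR-246 library 1 (limma adjusted p = 0.61) and -0.67, then called, without WT APR-246 library 2 (limma adjusted p = 0.0122).

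For the treatments, ABCC2 had a log2 difference of 0.28 ± 0.25 under the combination (limma adjusted p = 0.521), -0.14 ± 0.25 after irradiation (limma adjusted p = 0.748) and 0.61 ± 0.25 under APR-246 (limma adjusted p = 0.236). None of these was called in this fit, and the APR-246 difference was called once the GC slope described below was a covariate. Pooled over the lines, APR-246 libraries ranged from 20.1 to 60.9 CPM, with a median of 37.3 CPM. Solvent libraries ranged from 9.30 to 55.6 CPM, with a median of 21.7 CPM. In CPM the groups overlapped, both pooled and within each line. On the TMM-scaled CPM used for the tests, both APR-246 libraries lay above both solvent libraries in each line. The lower APR-246 library had 47.2 in WT, 32.1 in Mutant and 21.02 in Null. The higher solvent library had 46.1 in WT, 27.95 in Mutant and 19.7 in Null.

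ABCC1, the main exporter of glutathione conjugates, was called in none of the comparisons of this fit. It ranged from 154 to 189 CPM in Mutant, 113 to 181 CPM in Null and 131 to 226 CPM in WT. By treatment its 6 libraries ran from 113 to 212 CPM under the combination, 127 to 226 CPM after irradiation and 154 to 189 CPM under APR-246, against 125 to 184 CPM in solvent. Its log2 difference from solvent was -0.02 under the combination, 0.09 after irradiation and 0.10 under APR-246, each ± 0.14, with limma adjusted p between 0.708 and 0.951. Between the lines it was -0.07 ± 0.12 for Mutant minus WT and -0.20 ± 0.12 for Null minus WT, with limma adjusted p of 0.793 and 0.331.

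The exporters of cyclic nucleotides, ABCC4 and ABCC5, were the weakest members per kb, and their libraries differed widely within groups. ABCC4 had a median of 23.5 CPM under the combination (range 7.44 to 41.1), 12.8 CPM after irradiation (9.49 to 30.6) and 17.9 CPM under APR-246 (10.3 to 24.7), against 16.3 CPM in solvent (7.74 to 30.1). All 4 ranges overlapped, and its log2 differences of 0.30, -0.04 and 0.11, each ± 0.28, had limma adjusted p between 0.535 and 0.935. In WT under the combination ABCC4 had 41.1 and 33.8 CPM, against 23.7 and 7.74 CPM in WT solvent cells, 2 pairs that did not overlap. Limma gave a log2 difference of 1.17 ± 0.48 there (adjusted p = 0.275).

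ABCC5 had medians of 23.7 CPM under the combination (range 10.8 to 26.7), 15.3 CPM after irradiation (11.9 to 25.1) and 17.0 CPM under APR-246 (11.5 to 22.3), against 11.7 CPM in solvent (5.93 to 25.1). Its log2 differences were 0.55 ± 0.20 for the combination (limma adjusted p = 0.0889), 0.42 ± 0.20 for irradiation (limma adjusted p = 0.191) and 0.32 ± 0.20 for APR-246 (limma adjusted p = 0.515). The combination estimate passed the threshold without WT solvent library 1, at 0.72. In WT the combination gave 26.7 and 26.1 CPM of ABCC5, against 22.6 and 7.01 CPM in solvent, with no overlap. In Null it gave 21.8 and 10.8 CPM, against 13.004 and 5.93 CPM, where the groups overlapped in CPM. On the TMM-scaled CPM used for the tests, the Null groups did not overlap, at 19.3 and 13.9 against 11.9 and 8.004. The Mutant groups overlapped on that scale, at 21.1 and 14.6 under the combination against 19.7 and 12.8 in solvent.

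ABCC10, the drug pump, was likewise not called in this fit. It ranged from 35.9 to 44.9 CPM in Mutant and 37.0 to 46.2 CPM in Null, against 38.7 to 71.9 CPM in WT. The highest values in CPM were those of irradiated WT cells, 71.9 and 54.9, and of WT cells under the combination, 59.2 and 63.8. WT solvent cells had 51.8 and 38.7 CPM. On TMM-scaled CPM the ranges were 32.4 to 53.3 in Mutant, 34.8 to 53.9 in Null and 42.9 to 68.3 in WT. Irradiated WT cells stayed highest there, at 61.9 and 68.3, while WT cells under the combination had 48.9 and 57.2. The log2 difference of ABCC10 was -0.30 ± 0.13 for Mutant minus WT (limma adjusted p = 0.187) and -0.29 ± 0.13 for Null minus WT (limma adjusted p = 0.181). For treatments averaged over lines the differences were 0.02, 0.13 and -0.11, each ± 0.15, for the combination, irradiation and APR-246, with limma adjusted p between 0.618 and 0.955.

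Much of the spread between the 2 libraries of a group ran with the GC content of the transcripts. ABCC4, with 43.2% GC in its longest transcript, was higher in library 1 than in library 2 in 11 of 12 groups, with a median log2 difference of 0.70. ABCC2, at 44.9% GC, was higher in library 1 in 10 of 12 groups (median 0.67), and ABCC5, at 50.8% GC, in 9 of 12 (median 0.46). ABCC1, at 54.9% GC, was higher in library 1 in 1 of 12 groups (median -0.15) and ABCC10, at 58.7% GC, in 2 of 12 (median -0.21). ABCC3, at 55.8% GC, was higher in library 1 in 7 of 12 groups (median 0.18). Its highest difference, 1.93, was that of WT APR-246, the group with the library standing apart. Across genes, the slope of log2 CPM on GC was lower in library 1 in 11 of 12 groups, with a median difference of -0.508 per 10% GC, and the exception was Null APR-246, where ABCC2, ABCC4 and ABCC5 were also higher in library 2.

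**Figure D3:**
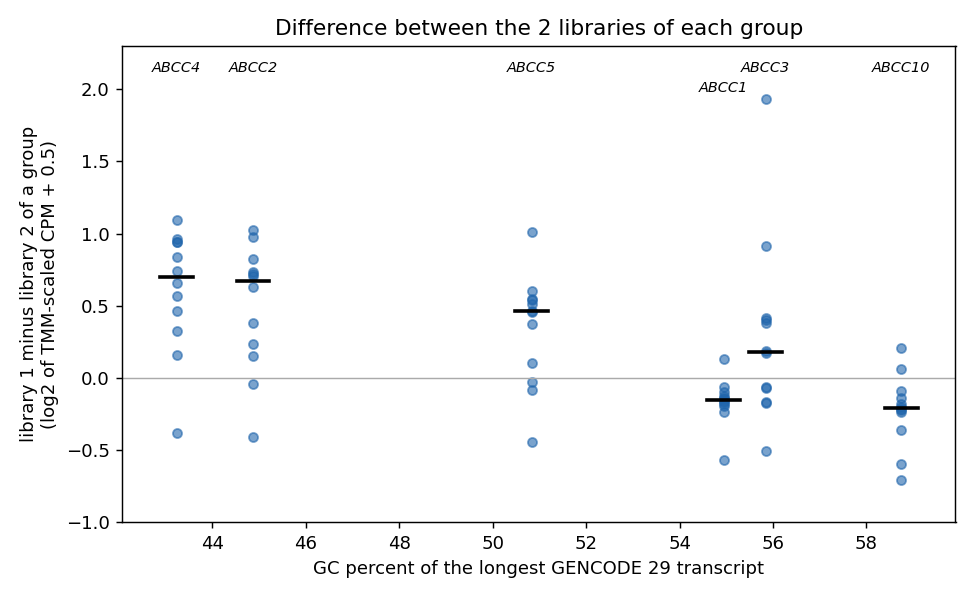
Log2 difference between library 1 and library 2 of each of the 12 groups, for each member, against the GC percent of its longest transcript; bars are medians. The members of lower GC, ABCC4 and ABCC2, are mostly higher in library 1, at medians of 0.70 and 0.67, and ABCC1 and ABCC10 mostly lower.

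The members' levels also grouped in this way across the 24 libraries, described by Pearson's r of log2 TMM-scaled CPM, with groups and libraries shared by all genes. ABCC4 went with ABCC5 (r = 0.73) and ABCC2 (r = 0.71), and ABCC1 with ABCC10 (r = 0.72). ABCC3 had r between -0.26 and 0.32 with the other members. Among 10743 genes of at least moderate level, those most like ABCC3 were SNHG8 (r = 0.94), PHYKPL (r = 0.94) and MOCOS (r = 0.93). Most like ABCC2 were PON2, GNPAT and AP1S3 (r = 0.92 each), most like ABCC4 were METAP2, SNX2 and WDR75 (r = 0.96 each), and most like ABCC5 were APAF1, TTF1 and TMEM245 (r of 0.91 to 0.94). The most similar genes to ABCC10 were PORCN, TMEM63B and CDIP1 (r of 0.88 to 0.89) and to ABCC1 DHODH, MINK1 and NOL3 (r of 0.80 each). The 9 genes named for ABCC2, ABCC4 and ABCC5 have 37.7 to 44.6% GC, and the 6 named for ABCC1 and ABCC10 have 53.1 to 63.3% GC. ABCC5 itself, at 50.8% GC, lies above the genes named for it, at 41.7 to 43.9%. SNHG8, PHYKPL and MOCOS, named for ABCC3, have 49.3, 60.8 and 47.6% GC, against 55.8% in ABCC3.

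With each library's GC slope as a covariate, the standard errors of the members other than ABCC3 became smaller and more genes were called overall. The ABCC3 estimates were -1.68 ± 0.26 for the combination, -1.64 ± 0.28 for irradiation and -1.18 ± 0.26 for APR-246, all called, with limma adjusted p of 0.000246, 0.000574 and 0.00541. ABCC5 was higher under the combination by 0.60 ± 0.09 (limma adjusted p = 1.46e-05), after irradiation by 0.64 ± 0.10 (limma adjusted p = 1.84e-05) and under APR-246 by 0.37 ± 0.09 (limma adjusted p = 0.00368). ABCC2 was higher under the combination by 0.35 ± 0.10 (limma adjusted p = 0.00727) and under APR-246 by 0.67 ± 0.10 (limma adjusted p = 7.07e-05). ABCC4 was higher under the combination by 0.39 ± 0.08 (limma adjusted p = 0.000553) and after irradiation by 0.30 ± 0.09 (limma adjusted p = 0.00791). That made 4 of 6 members called for the combination, 3 of 6 for irradiation and 3 of 6 for APR-246. All genes were called at 43.8%, 37.3% and 27.4% in these fits, so the members' counts are given as a description only. ABCC2 was lower under the combination than under APR-246 (log2 difference -0.32 ± 0.10, limma adjusted p = 0.0317), 1 of 6 members beside 17.1% of all genes. Beyond additivity, ABCC2, at -0.47 ± 0.15, and ABCC5, at -0.41 ± 0.13, were called lower (limma adjusted p = 0.0344 and 0.0363), 2 of 6 members beside 15.4% of all genes, while ABCC3, at 1.14 ± 0.38, was not (limma adjusted p = 0.0658). The mean GC slope itself differed between treatments, at -0.0317 per 10% GC under the combination, 0.169 after irradiation and -0.0381 under APR-246, against -0.0989 in solvent. It also differed between the lines, at -0.123 per 10% GC in WT, 0.00898 in Mutant and 0.114 in Null. The covariate thus varied with treatment and with line, and how far this shaped the differences given with it was not tested.

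Between the lines the same covariate gave ABCC2 differences of -0.76 ± 0.09 for Mutant minus WT (limma adjusted p = 6.01e-07), -1.25 ± 0.09 for Null minus WT (limma adjusted p = 3.76e-10) and 0.49 ± 0.09 for Mutant minus Null (limma adjusted p = 0.000128). ABCC10 was lower in Mutant than in WT (log2 difference -0.37 ± 0.07, limma adjusted p = 0.000163) and in Null than in WT (-0.41 ± 0.07, limma adjusted p = 6.77e-05). ABCC1 was lower in Null than in WT (log2 difference -0.28 ± 0.06, limma adjusted p = 0.000936) and higher in Mutant than in Null (0.16 ± 0.06, limma adjusted p = 0.0306). ABCC3 was again lower in Null than in WT (log2 difference -0.80 ± 0.24, limma adjusted p = 0.0244). Members called numbered 2 of 6 for Mutant against WT, 4 of 6 for Null against WT and 2 of 6 for Mutant against Null, beside 31.8%, 30.9% and 35.5% of all genes. Within lines, ABCC3 was then called for the combination and for irradiation in each line, with limma adjusted p of 0.0186 to 0.0474, and not for APR-246. ABCC4 and ABCC5 were called as well in WT for both, ABCC2 in WT for the combination and in Mutant and Null for APR-246, and ABCC5 in Null for all 3 treatments. All genes were called at 16.5% in Mutant, 24.6% in Null and 21.7% in WT for the combination, 13.5%, 20% and 18.1% in that order for irradiation, and 6.74% in Mutant and 15.1% in Null for APR-246. The difference of ABCC4 between combination and solvent was larger in WT than in Null by 0.80 ± 0.20 with this covariate (limma adjusted p = 0.0404, where 2.01% of all genes were called), against 1.30 ± 0.68 without it (limma adjusted p = 0.938).

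**Figure D4:**
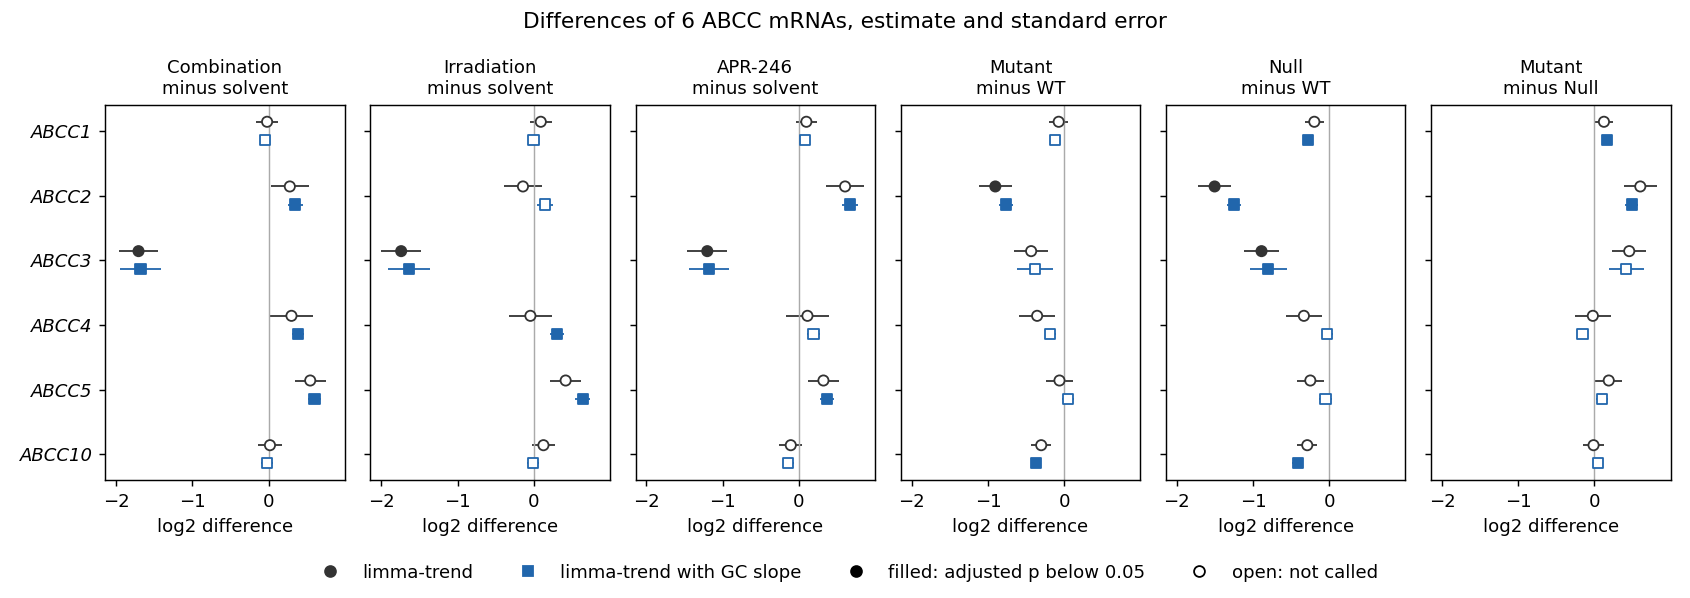
Log2 differences of the 6 mRNAs with standard errors, for 3 treatments averaged over lines and 3 pairs of lines averaged over treatments; circles are the limma fit, squares the fit with the GC slope, and filled symbols have an adjusted p under 0.05. ABCC3 lies at -1.20 to -1.74 for the treatments in the first fit, and ABCC2 at -0.90 and -1.50 for Mutant and Null against WT.

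The genes that make, use and trim glutathione were counted alongside the pumps. The counts stand beside 13.9% of all genes called for the combination, 13% for irradiation and 3.14% for APR-246, or 43.8%, 37.3% and 27.4% with the GC slope. In the synthesis and cystine import list, 0 of 7 genes rose and 3 fell under the combination, 0 rose and 2 fell after irradiation, and 0 rose and 1 fell under APR-246. With the GC slope 2 rose and 4 fell under the combination, 0 rose and 4 fell after irradiation, and 2 rose and 3 fell under APR-246. Without that covariate its median log2 difference was -0.65, -0.74 and -0.21 in that order, against 0.01, -0.01 and -0.01 over all genes tested. SLC3A2, the heavy chain of the cystine importer, had a median of 516 CPM under the combination, 496 CPM after irradiation and 523 CPM under APR-246, against 1861 CPM in solvent. It fell with log2 differences of -1.92, -1.90 and -1.63, each ± 0.36 (limma adjusted p = 0.00235, 0.00302 and 0.0211). SLC7A11, the light chain, fell by 2.44 ± 0.55 under the combination (limma adjusted p = 0.00748) and by 3.11 ± 0.55 after irradiation (limma adjusted p = 0.0019), and GSS, glutathione synthetase, fell by 0.82 ± 0.25 under the combination (limma adjusted p = 0.0399).

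Of 17 glutathione S-transferases, 14 were tested. Under the combination 3 rose and 1 fell, after irradiation 1 rose and 1 fell, and under APR-246 none was called. With the GC slope 7 rose and 2 fell under the combination, 4 rose and 2 fell after irradiation, and 4 rose and 1 fell under APR-246. MGST3, a membrane-bound transferase, had a median of 43.3 CPM under the combination, against 23.5 CPM in solvent, a log2 difference of 0.77 ± 0.20 (limma adjusted p = 0.0181). GSTT2B rose under the combination by 0.95 ± 0.19 (limma adjusted p = 0.00352) and after irradiation by 0.89 ± 0.19 (limma adjusted p = 0.00618), though its counts are uncertain because a near-identical copy lies beside it. MGST2 rose by 0.65 ± 0.20 under the combination, and GSTO2 fell by 0.66 ± 0.16 under the combination and by 0.60 ± 0.16 after irradiation (limma adjusted p between 0.0143 and 0.0433).

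Of 16 genes that break down glutathione and its conjugates, 15 were tested, and 2 rose and 3 fell under the combination, 3 rose and 2 fell after irradiation, and 0 rose and 1 fell under APR-246. The fit with the GC slope gave 5 up and 5 down, 4 up and 4 down, and 2 up and 4 down in that order. CHAC1, which degrades glutathione inside the cell, fell with log2 differences of -3.05, -2.81 and -2.64, each ± 0.46, for the combination, irradiation and APR-246 (limma adjusted p = 0.000538, 0.0011 and 0.00761). LAP3, a leucine aminopeptidase, rose by 0.74 ± 0.12 under the combination (limma adjusted p = 0.00109) and by 0.50 ± 0.12 after irradiation (limma adjusted p = 0.0158). GGT6 rose more, by 0.89 and 0.79, each ± 0.13 (limma adjusted p = 0.000524 and 0.00151), but its medians were only 0.230 and 0.0875 CPM. ANPEP rose by 0.67 ± 0.17 after irradiation (limma adjusted p = 0.0162), to a median of 0.948 CPM. GGT5, a gamma-glutamyltransferase family member, fell by 1.53 ± 0.23 under the combination (limma adjusted p = 0.000561), to a median of 0.798 CPM against 3.00 CPM in solvent. Of 20 other NRF2 targets, 1 rose and 1 fell under the combination, 1 rose and 2 fell after irradiation and none was called under APR-246, against 4 up and 9 down, 1 up and 10 down, and 5 up and 6 down with the GC slope. Under the combination AKR1B10 rose by 1.10 ± 0.19 (limma adjusted p = 0.00117), to a median of only 0.716 CPM. SRXN1 fell there by 0.67 ± 0.20 (limma adjusted p = 0.0348). The thioredoxin reductase TXNRD1 fell by 0.99 ± 0.26 after irradiation (limma adjusted p = 0.0198). ME1 fell by 0.56 ± 0.16 (limma adjusted p = 0.0299) and AKR1C3 rose by 0.44 ± 0.14 (limma adjusted p = 0.0436) after irradiation. Without the covariate no gene was called for any of the 3 treatments among 5 tested of 6 other ABCC genes, or among 8 other drug efflux pumps and conjugate carriers. With the GC slope 1 of 5 other ABCC genes rose after irradiation, and among the 8 efflux pumps and carriers 3 rose under the combination, 3 rose and 1 fell after irradiation and 2 rose under APR-246.

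Between the lines, ABCB1, the drug pump P-glycoprotein, was higher in Mutant than in WT by 0.70 ± 0.14 (limma adjusted p = 0.00406) and higher in Mutant than in Null by 0.54 ± 0.14 (limma adjusted p = 0.0183). ABCC6 had a median of 2.70 CPM in Mutant and 0.666 CPM in Null, against 2.57 CPM in WT. It was lower in Null than in WT (log2 difference -1.29 ± 0.13, limma adjusted p = 3.87e-06) and higher in Mutant than in Null by 1.34 ± 0.13, but pseudogene copies of ABCC6 make its counts uncertain. NQO1, a quinone reductase and NRF2 target, was higher in Mutant by 0.75 ± 0.21 than in WT (limma adjusted p = 0.0312) and by 0.79 ± 0.21 than in Null (limma adjusted p = 0.0202). Of the 20 other NRF2 targets, 1 was higher and 1 lower in Mutant than in WT, beside 9.65% of all genes called. The lower gene was AKR1B10 (log2 difference -0.57 ± 0.16, limma adjusted p = 0.0323). Its medians were 0.106 CPM in Mutant and 0.634 CPM in WT. Against Null, 2 of the 20 were higher and 0 lower in Mutant, beside 12% of all genes. DPEP1, a dipeptidase that trims conjugates at the cell surface, was lower in Mutant than in WT (log2 difference -1.13 ± 0.19, limma adjusted p = 0.00115) and in Null than in WT (-0.95 ± 0.19, limma adjusted p = 0.0037). GGT6 was lower by 1.27 and 1.12, each ± 0.11, in the same comparisons (limma adjusted p = 2.07e-06 and 6.7e-06). Its medians were 0 CPM in Mutant and 0.0262 CPM in Null, against 1.06 CPM in WT. In the breakdown list 0 of 15 tested genes were higher and 3 lower in Mutant than in WT, and 0 were higher and 3 lower in Null than in WT, beside 9.65% and 11.8% of all genes called. The GC slope made these 1 higher and 5 lower, and 0 higher and 4 lower, beside 31.8% and 30.9% of all genes. Without that slope, 1 gene of the breakdown list was higher and 1 lower in Mutant than in Null. Of 14 transferases tested, 1 was higher and 1 lower in Mutant than in WT, and 1 higher and 2 lower in Null than in WT. Of the NRF2 targets, 1 was higher and 1 lower in Null than in WT. In the synthesis and cystine import list 0 of 7 genes were called against WT in either line.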

How the data were processed

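The submitters' processing notes name STAR, FastQC, Subread, featureCounts and GRCh38.p13 as what the authors used; versions, annotation release and strand setting are not given in the sources used here. The deposited values are CPM of all reads assigned to genes. Dividing by the value of 1 read gave whole reads for 100% of values within 0.05 read. Even counts made up 74.5 to 81.5% of values of 2 to 9 reads, so fragments may be fewer than reads. A floor of 3 reads equals 0.0517 to 0.0564 CPM, which covers counting error only.

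Symbols were matched for 60419 identifiers; coordinates, exon length and GC came from GENCODE 29, which matched 58444. Genes kept by filterByExpr (count minimum 10) numbered 20668. The planned main test was robust limma-trend (R 4.3.3, limma 3.58.1, with TMM factors from edgeR 4.0.16) on log2 of TMM-scaled CPM plus 0.5, two-sided. It used 1 coefficient per group and 12 residual degrees of freedom, and such folds understate changes of low genes. edgeR's quasi-likelihood test and DESeq2 1.42.0 on the recovered reads were alternatives. The GC slope of a library is the slope of gene-centred log2 values on transcript GC over 10736 genes, and 98.3% of tested genes have a GC value. Scripts were tested on simulated data. The members, lists and tests were chosen with earlier results of these data known. The text names every member, at most the 3 largest called genes of a list in each direction, the 3 genes of highest r with each member, and CDKN1A, CHAC1 and DDIT4 as checks. One further check of the line labels is not reported here.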

Additional observations from a re-analysis of the deposited data

How the results depend on the processing

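The falls of ABCC3 after irradiation and under the combination, averaged over the lines, and the lower ABCC2 and ABCC3 in Null than in WT, averaged over the treatments, kept their direction and their call in all alternatives run, leaving out each library included. The replicate numbers are shared between groups without a stated meaning: differences between libraries 1 and 2 correlated between groups at r of -0.722 to 0.947 (median 0.759), above 0.1 in 55 of 66 pairs of groups. With the replicate block, members called over the lines were 2 for APR-246 (ABCC3, and ABCC2 at 0.61, limma adjusted p = 0.0194), 2 for irradiation and 2 for the combination (ABCC3, and ABCC5 at 0.42 and 0.55, limma adjusted p = 0.0417 and 0.0113), 1 beyond additivity (ABCC3 at 1.24, limma adjusted p = 0.0299), 2 for Mutant against WT (ABCC2 and ABCC10), 3 for Null against WT (these and ABCC3) and 1 for Mutant against Null (ABCC2). In these fits 12.7%, 32.8%, 29.6%, 5.31%, 23%, 30.6% and 23.2% of all genes were called in that order. Within lines the block gave ABCC3 alone for irradiation in each line and for the combination in Mutant and Null, and 2 members, ABCC3 and ABCC4, for the combination in WT, beside 6.3% to 12.8% of all genes. With the GC slope, alone or with the block, they were 3 for APR-246, 3 for irradiation, 4 for the combination, 1 for combination against APR-246, 2 beyond additivity, 2 for Mutant against WT, 4 for Null against WT and 2 for Mutant against Null. Within lines the GC slope, alone or with the block, gave 3 for irradiation and 4 for the combination in WT, 1 for each of the 3 treatments in Mutant and 2 for each in Null; the report gives the members and the shares of all genes with the GC slope, and with both these were 10.8% to 44.8%. DESeq2 called 1 member for Mutant against Null and 1 for irradiation and for the combination in each line, beside 15.8% and 3.42% to 6.44% of all genes. Without TMM scaling 0 were called for APR-246 and 0 for Mutant against WT, beside 4.12% and 9.12% of all genes.

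Leaving out 1 library at a time gave 0 to 1 members for APR-246 over the lines and in WT, 1 to 2 for the combination, 0 to 1 for combination against APR-246, 0 to 1 beyond additivity, 1 to 2 for Mutant against WT and 0 to 1 for Mutant against Null. In WT, ABCC3 under APR-246 ranged from -2.08, called without WT APR-246 library 1, to -0.14 without library 2.

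The differences that changed sign were not called in the fit without a covariate, and of their values with the GC slope that of ABCC4 after irradiation was called with the GC slope, with and without the block. With the GC slope the irradiation differences were -0.0027 for ABCC1, 0.15 for ABCC2, 0.30 for ABCC4 and -0.013 for ABCC10, and with the block and GC slope -0.0081, 0.16, 0.30 and -0.045. The combination difference of ABCC10 became -0.017 with the GC slope and -0.025 with both, and that of ABCC1 0.11 without TMM scaling. For Mutant minus WT, ABCC5 became 0.050 with the GC slope and 0.089 with both, and for Null minus WT 0.020 with both. For Mutant minus Null, ABCC10 became 0.044 with the GC slope, 0.056 with both and 0.049 without TMM scaling, where ABCC4 became 0.038. Leaving out 1 library gave APR-246 differences of -0.048 to 0.27 for ABCC4 and -0.22 to 0.011 for ABCC10, and irradiation differences of -0.0020 to 0.19 for ABCC1, -0.31 to 0.029 for ABCC2 and -0.20 to 0.12 for ABCC4. It gave combination differences of -0.11 to 0.075 for ABCC1 and -0.10 to 0.14 for ABCC10, Mutant minus WT differences of -0.14 to 0.00013 for ABCC1 and -0.19 to 0.066 for ABCC5, and Mutant minus Null differences of -0.16 to 0.12 for ABCC4 and -0.10 to 0.077 for ABCC10. The cause was not tested. The lowest member value, 5.93 CPM of ABCC5, lay above the floor of 3 reads, which was at most 0.0564 CPM.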
